A study of Mus musculus with 34 samples.

Results

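The genes described are 34 genes of the folding machinery and stress response of the endoplasmic reticulum (ER), taken by symbol from a list and grouped by role as 7 sensors and effectors, 8 chaperones and their partners, 9 disulfide isomerases and oxidases, and 10 genes of ER-associated degradation (ERAD). All 34 were among the 54532 genes of the deposited count table and among the 22018 genes that passed the filter on low counts, and the lowest estimated count of any of them in any library was 38.5, for *Pdia5*. RNA had been sequenced from the whole dorsal hippocampus of male C57BL/6J mice aged 2 to 3 months. In the SOR group, 4 mice were trained in spatial object recognition, a task in which a mouse learns where objects stand in an arena, and were euthanized 1 h later, and in the homecage group 4 mice were left untrained. No transgene, deletion or drug is named for either group, and each library came from 1 mouse, so that every cell type of the dissected tissue contributed to each value. Trained mice had also met an arena and objects, which cannot be told apart from learning in this design.

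Secreted and membrane proteins fold in the ER with the help of chaperones and of enzymes that form and rearrange disulfide bonds. When unfolded proteins build up, the sensors *Atf6*, *Ern1* (IRE1) and *Eif2ak3* (PERK) start the unfolded protein response: cleaved *Atf6* and the spliced form of *Xbp1* turn on chaperone and ERAD genes, while *Eif2ak3* slows translation and favours that of *Atf4*, which turns on *Ddit3* (CHOP) and *Ppp1r15a* (GADD34). Neurons use this pathway for the receptors and channels that they place in their membranes. The count table holds 1 value per gene, so that the spliced and unspliced forms of *Xbp1* are not separated, and neither cleavage of *Atf6* nor phosphorylation of *Eif2ak3* is measured.

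Many genes of this response share the ER stress response element (ERSE), to which *Atf6* binds together with the factor NF-Y. RefSeq promoters of GRCm38.p6, which span 250 bases before to 50 bases after a start site, were given for 30 of the 34 genes, and not for *Atf6*, *Hyou1*, *Manf* or *Derl1*. ERSE was searched as CCAAT, 9 bases of any kind and CCACG on both strands, and its second form, ERSE-II, as ATTGG, 1 base and CCACG. ERSE was found in 9 of them, against 0.119% of all 32851 promoters, and ERSE-II in *Herpud1* alone of them, against 0.0365% of all promoters. Of the genes with large differences between trained and homecage mice, *Sdf2l1*, *Ppp1r15a*, *Xbp1* and *Pdia4* held neither form. The following stretches are examples. They show ERSE in *Hspa5*, *Creld2*, *Pdia6* and *Calr*, and in *Canx*, which differed little, and ERSE-II in *Herpud1*. Capitals mark the fixed letters of the match, which read CGTGG and ATTGG where it lies on the reverse strand, and each runs 5′ to 3′ along its gene:
*Hspa5*, chr2:34772010-34772058, plus strand: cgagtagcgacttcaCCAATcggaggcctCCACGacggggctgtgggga
*Creld2*, chr15:88819505-88819553, plus strand: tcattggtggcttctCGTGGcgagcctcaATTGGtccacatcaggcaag
*Pdia6*, chr12:17266476-17266524, plus strand: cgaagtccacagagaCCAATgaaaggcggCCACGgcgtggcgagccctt
*Calr*, chr8:84847060-84847108, minus strand: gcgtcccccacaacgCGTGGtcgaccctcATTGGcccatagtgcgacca
*Canx*, chr11:50325785-50325833, minus strand: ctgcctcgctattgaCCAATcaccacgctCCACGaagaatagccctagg
*Herpud1*, chr8:94386362-94386402, plus strand: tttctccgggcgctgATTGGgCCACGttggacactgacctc

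These matches began 65 bases before the start site in *Hspa5*, 126 in *Creld2*, 98 in *Pdia6*, 162 in *Calr*, 145 in *Canx* and 52 in *Herpud1*. The other genes with ERSE were *Hsp90b1*, which holds 2 matches, *Ero1lb*, *Syvn1* and *Derl3*. A further motif, TGACGTGG, which is bound by spliced *Xbp1* and by *Atf6* and whose last letters, CGTGG, are those of ERSE on the reverse strand, was found in *Txndc5* and *Txndc11*, which hold no ERSE, against 0.676% of all promoters.

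The libraries held 51406011 to 81525977 estimated counts, and values are given as CPM, that is counts divided by library sizes scaled by upper-quartile factors and expressed per 1000000. Markers of CA1, CA3 and dentate granule cells were present in every library, and 12 of 18 immediate early genes were higher in SOR at an adjusted p under 0.05 by edgeR's quasi-likelihood test, with summed levels of 476 to 501 CPM in homecage and 789 to 899.6 CPM in SOR samples. SOR replicate 1 stood apart: its counts differed from those of the other SOR replicates with a chi-square per degree of freedom of 45.2 to 49.2, while the others differed among themselves by 11.1 to 16.6 and homecage pairs by 12.6 to 45.9. The 8 choroid plexus markers, *Ttr* among them, summed to 4109 CPM in this library, to 911, 817 and 45.0 CPM in SOR replicates 2 to 4 and to 1127, 31.0, 69.5 and 911 CPM in homecage replicates 1 to 4. The main values are therefore given with and without SOR replicate 1.

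None of the 34 genes passed an adjusted p under 0.05 in the main comparison. Every SOR mouse lay above every homecage mouse for 3 of 7 sensors and effectors, 3 of 8 chaperones, 2 of 9 disulfide isomerases and oxidases and 1 of 10 ERAD genes, against 2.98% of all genes tested. By edgeR's quasi-likelihood test, with p adjusted by the Benjamini-Hochberg method over all genes tested, 0 genes passed in either direction, against 0.273% of all genes tested for higher and 0.0363% for lower. DESeq2 called 3 of the 34 higher, against 1.46% of all genes, and limma-voom 0, against 0.25%. At an unadjusted p under 0.05, 16 were higher in SOR, against 4.54% of all genes, and 0 were lower, against 5.51%. The 4 SOR values lay above all 4 homecage values for 9 genes (*Eif2ak3*, *Xbp1*, *Atf4*, *Hspa5*, *Calr*, *Manf*, *Pdia6*, *Ero1lb* and *Herpud1*) and below them for 2 (*Edem2* and *Os9*), against 3.96%. The fold change exceeded 1.4 for 6 genes (*Manf*, *Sdf2l1*, *Ppp1r15a*, *Hspa5*, *Creld2* and *Herpud1*), against 2.97% of all genes. The log2 fold change was above 0 for 28 of 34 genes with a median of 0.19, while 43.8% of all genes were above 0 with a median of -0.019.

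SOR replicate 1 was the highest of the 8 samples for 24 of the 34 genes, against 15.1% of all genes, and homecage replicate 1 was the highest of the homecage samples for 17, against 27.7%. Without SOR replicate 1 the median log2 fold change of the 34 genes was 0.11, and 26 were above 0. The same 9 genes had SOR values above all homecage values in this comparison, against 4.68% of all genes, and *Edem2* alone lay below them, against 5.86%. By edgeR's quasi-likelihood test 0 genes then passed an adjusted p under 0.05, against 0.221% of all genes for higher, and 11 were higher at an unadjusted p under 0.05, against 4.57%.

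**Figure D1:**
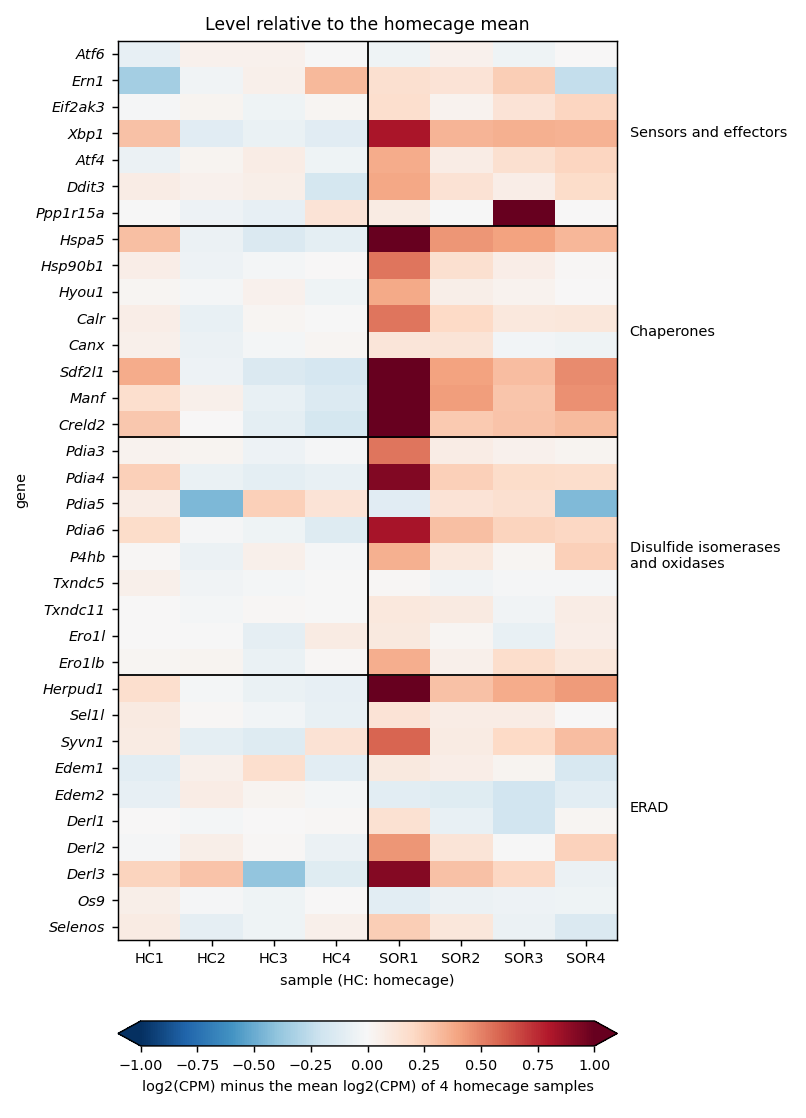
Each cell is the log2 CPM of a gene in 1 sample minus its mean over the 4 homecage samples, with genes in rows by role and samples in columns (red above and blue below the homecage mean, scale capped at 1 either way). The SOR replicate 1 column is darkest, and *Hspa5*, *Sdf2l1*, *Manf*, *Creld2*, *Herpud1* and *Xbp1* are red in all 4 SOR samples.

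Among the sensors, *Eif2ak3* alone had SOR values above all homecage values. *Atf6*, the membrane-bound transcription factor, measured 118, 129, 129 and 125 CPM in homecage replicates 1 to 4 and 122, 129, 121 and 126 CPM in SOR replicates 1 to 4. Its groups overlapped throughout, with a log2 fold change of -0.012 ± 0.041 (SE; edgeR, adjusted p = 0.957). *Ern1* measured 7.54, 9.28, 9.85 and 11.9 CPM in homecage replicates 1 to 4 and 10.6, 10.5, 11.3 and 8.07 CPM in SOR replicates 1 to 4, and encodes the kinase and nuclease that splices *Xbp1*. Its values ran through each other as well, with a log2 fold change of 0.068 ± 0.14 (SE; edgeR, adjusted p = 0.916). *Eif2ak3* measured 23.3, 24.0, 22.8 and 23.8 CPM in homecage replicates 1 to 4 and 26.5, 24.1, 25.9 and 27.3 CPM in SOR replicates 1 to 4, for the kinase that slows translation. The SOR samples lay above the homecage samples by a narrow margin, SOR replicate 4 was the highest, and the log2 fold change of 0.14 ± 0.056 (SE; edgeR, adjusted p = 0.432) was 0.13 without SOR replicate 1. The separation was lost when libraries were scaled by size alone or genes were not filtered.

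*Xbp1* (ENSMUSG00000020484, chromosome 11 of GRCm38 from 5520659 to 5525893), which encodes the transcription factor downstream of *Ern1*, had the smallest adjusted p of the 34 genes in the main comparison. *Xbp1* measured 60.7, 46.0, 47.5 and 46.0 CPM in homecage replicates 1 to 4 and 87.7, 62.8, 63.7 and 63.2 CPM in SOR replicates 1 to 4. SOR replicates 2 to 4 lay close together and above homecage replicate 1, which was itself above the other homecage mice. The mean was 69.3 ± 12.2 CPM in SOR beside 50.1 ± 7.16 CPM in homecage mice (SD, n = 4 each), for a log2 fold change of 0.47 ± 0.12 (SE; edgeR, adjusted p = 0.203), and it was 0.34 without SOR replicate 1. *Atf4* measured 97.0, 103, 106 and 97.8 CPM in homecage replicates 1 to 4 and 131, 106, 113 and 117 CPM in SOR replicates 1 to 4, and its log2 fold change was 0.21 ± 0.061 (SE; edgeR, adjusted p = 0.255), or 0.15 without SOR replicate 1. This gene, a transcription factor of the *Eif2ak3* branch, had the highest level per length of exon among the sensors and effectors (42.8 CPM per kilobase in homecage), and its groups were separated by less than 1 CPM, a margin that was lost when libraries were scaled by size alone, genes were not filtered or homecage replicate 1 or SOR replicate 4 was left out.

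*Ddit3*, a transcription factor that promotes cell death under lasting stress, had overlap of the groups through SOR replicate 3 and a log2 fold change of 0.20, or 0.13 without SOR replicate 1. *Ppp1r15a*, the phosphatase subunit that reverses the *Eif2ak3* signal, had a log2 fold change of 0.63 that rested on 1 mouse, a gene for which each value is given after they were seen. *Ppp1r15a* measured 10.2, 9.95, 9.71 and 11.3 CPM in homecage replicates 1 to 4 and 10.9, 10.3, 32.4 and 10.3 CPM in SOR replicates 1 to 4. The other SOR samples lay within the homecage range, and the log2 fold change without that mouse was 0.028. Over the 7 sensors and effectors the median log2 fold change was 0.20 with all samples, 0.13 without SOR replicate 1 and 0.14 without SOR replicate 3.

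By median, the chaperones and their partners lay furthest above homecage of the 4 roles. All 8 had a log2 fold change above 0, with a median of 0.42 with all samples and 0.21 without SOR replicate 1. Within this role *Manf*, *Sdf2l1*, *Hspa5* and *Creld2* had 0.68, 0.66, 0.63 and 0.58. *Calr*, *Hsp90b1*, *Hyou1* and *Canx* had 0.25, 0.21, 0.13 and 0.047, so the ranking depends on which genes were placed in the role. *Hspa5* (ENSMUSG00000026864, chromosome 2 of GRCm38 from 34771970 to 34777547) encodes BiP, the Hsp70 of the ER that also holds the sensors inactive. *Hspa5* measured 324, 254, 238 and 247 CPM in homecage replicates 1 to 4 and 609, 358, 348 and 332 CPM in SOR replicates 1 to 4. The lowest SOR value exceeded the highest homecage value, which again came from homecage replicate 1, and SOR replicate 1 was 1.76 times the mean of the other SOR mice. The mean was 412 ± 132 CPM in SOR beside 266 ± 39.5 CPM in homecage mice (SD, n = 4 each), a log2 fold change of 0.63 ± 0.18 (SE; edgeR, adjusted p = 0.253) that was 0.38 without SOR replicate 1.

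*Manf* (ENSMUSG00000032575, chromosome 9 of GRCm38 from 106838312 to 106891979), a secreted protein that is held in the ER through *Hspa5*, showed the largest log2 fold change of the 34 genes. *Manf* measured 34.3, 31.6, 29.1 and 27.8 CPM in homecage replicates 1 to 4 and 76.8, 40.8, 37.1 and 41.9 CPM in SOR replicates 1 to 4. Every SOR mouse lay above every homecage mouse, and SOR replicate 1 was 1.92 times the mean of the others. The log2 fold change was 0.68 ± 0.20 (SE; edgeR, adjusted p = 0.268), and 0.38 without SOR replicate 1. Exons of *Manf* share 166 bases with 4930524O07Rik and 146 with Dcaf1 on the opposite strand, those of *Eif2ak3* 485 with Gm43292 and those of *Hsp90b1* 415 with 1810014B01Rik. Those of *Txndc5* share 311 bases with Gm31834 and 224 with Bmp6 and those of *Derl2* 231 with Mis12, also on the opposite strand, and whether counting used strand is not stated. *Sdf2l1* measured 8.67, 6.49, 6.07 and 5.96 CPM in homecage replicates 1 to 4 and 16.3, 8.88, 8.31 and 9.33 CPM in SOR replicates 1 to 4, and encodes a partner of the *Hspa5* cycle. *Creld2* measured 11.9, 9.92, 9.24 and 8.75 CPM in homecage replicates 1 to 4 and 23.4, 11.9, 12.04 and 12.3 CPM in SOR replicates 1 to 4, and encodes an ER protein with EGF-like repeats. For both genes homecage replicate 1 alone reached into the SOR range, above SOR replicate 3 for *Sdf2l1* and above SOR replicate 2 for *Creld2*. The log2 fold changes were 0.66 ± 0.21 (SE; edgeR, adjusted p = 0.328) for *Sdf2l1* and 0.58 ± 0.21 (SE; edgeR, adjusted p = 0.396) for *Creld2*, or 0.38 and 0.28 without SOR replicate 1.

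*Calr*, the calcium-binding lectin chaperone calreticulin, had the highest level per length of all 34 genes, at 156 CPM per kilobase of exon in homecage. *Calr* measured 468, 425, 453 and 446 CPM in homecage replicates 1 to 4 and 649.6, 516, 483 and 486 CPM in SOR replicates 1 to 4. The groups did not overlap, and the log2 fold change of 0.25 ± 0.087 (SE; edgeR, adjusted p = 0.363) was 0.14 without SOR replicate 1. *Canx*, its membrane-bound relative calnexin, had a log2 fold change of 0.047 with overlapping groups. For *Hsp90b1* (GRP94, the Hsp90 of the ER) the log2 fold change was 0.21 with all samples and 0.078 without SOR replicate 1, and for *Hyou1*, the exchange factor of *Hspa5*, 0.13 and 0.030. SOR replicates 2 to 4 of *Hyou1* lay between 118 and 122 CPM, beside 114 to 121 CPM in homecage, so that its difference came almost wholly from SOR replicate 1.

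**Figure D2:**
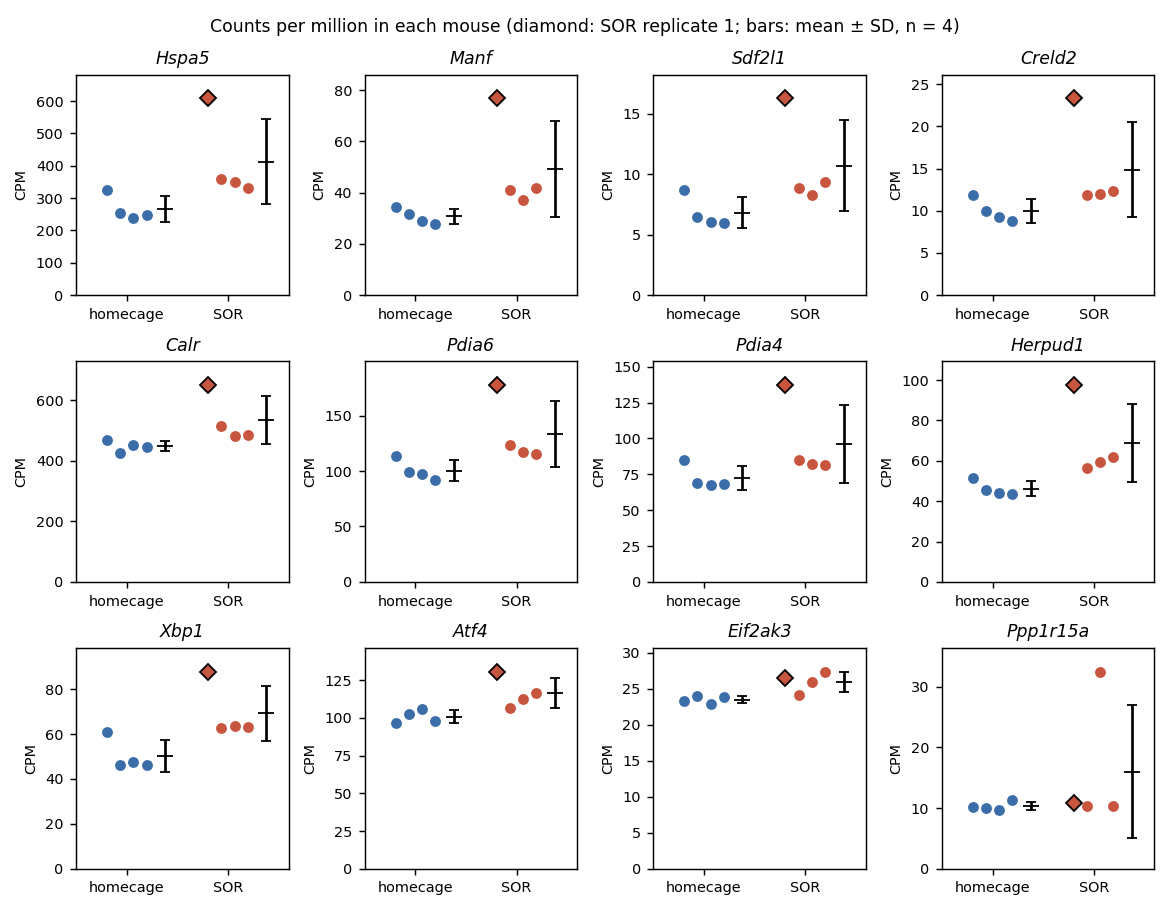
CPM of 12 genes in each of the 8 mice (blue homecage, red SOR, black diamond outline SOR replicate 1, bars mean ± SD of 4, axes from 0). SOR replicate 1 is the highest sample in every panel but those of *Eif2ak3*, where SOR replicate 4 is, and *Ppp1r15a*, where SOR replicate 3 stands alone.

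Of the disulfide isomerases and oxidases, *Pdia4* and *Pdia6* stood out, while *Ero1l*, *Txndc5*, *Txndc11* and *Pdia5* had log2 fold changes near 0. *Pdia6* measured 114, 99.3, 96.9 and 91.6 CPM in homecage replicates 1 to 4 and 178, 123, 117 and 116 CPM in SOR replicates 1 to 4. All SOR mice lay above all homecage mice, by the margin between SOR replicate 4 and homecage replicate 1, and the log2 fold change was 0.41 ± 0.13 (SE; edgeR, adjusted p = 0.308). *Pdia4* measured 84.9, 68.9, 67.5 and 68.3 CPM in homecage replicates 1 to 4 and 137, 85.0, 81.9 and 81.1 CPM in SOR replicates 1 to 4. Here homecage replicate 1 lay above SOR replicates 3 and 4, at 84.9 CPM beside 81.1 to 85.0 CPM, and the log2 fold change was 0.41 ± 0.16 (SE; edgeR, adjusted p = 0.423). Without SOR replicate 1 these values were 0.24 for *Pdia6* and 0.19 for *Pdia4*. The study lists *Pdia4*, *Pdia6* and *Herpud1* as differentially expressed in these same samples, so that their direction here is no independent evidence. Its thresholds were an FDR under 0.05 and a fold change of 1.4, by edgeR after adjustment for latent sources of variation. In the main comparison here, made without that adjustment, none of these genes passed an adjusted p under 0.05. Their fold changes here were 1.33 for *Pdia4*, 1.33 for *Pdia6* and 1.49 for *Herpud1*. In alternative fits with factors for latent variation (RUVs), *Herpud1* passed with 2 and with 3 factors (edgeR, adjusted p = 0.0109 and 0.0145). *Pdia4* and *Pdia6* did not pass with 1, 2 or 3 factors, and the number used by the study is not given. Why these results differ from those of the study was not tested. From its spatial data, which were not analysed here, the study also reports *Pdia6* and *Creld2* as higher after learning in the dentate gyrus alone. There it reports *Xbp1* and *Sdf2l1* as higher in CA1 and the dentate gyrus, and *Hspa5* across the hippocampal subregions.

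*Pdia3*, the isomerase that works with calnexin and calreticulin on glycoproteins, had the highest level per length of this role (40.3 CPM per kilobase of exon in homecage). *Pdia3* measured 129.8, 129, 122 and 125 CPM in homecage replicates 1 to 4 and 183, 133, 131 and 129 CPM in SOR replicates 1 to 4. SOR replicate 4 lay among the homecage mice, SOR replicate 1 far above all others, and the log2 fold change of 0.19 ± 0.10 (SE; edgeR, adjusted p = 0.573) was 0.048 without that mouse. *P4hb*, the most widely acting isomerase (PDI), had a log2 fold change of 0.19, and 0.12 without SOR replicate 1. *Ero1lb* measured 25.1, 25.2, 23.7 and 25.0 CPM in homecage replicates 1 to 4 and 31.8, 25.6, 27.9 and 26.7 CPM in SOR replicates 1 to 4, for an oxidase that recharges the isomerases. Its groups did not overlap, with a log2 fold change of 0.18 ± 0.070 (SE; edgeR, adjusted p = 0.431), or 0.11 without SOR replicate 1. The other oxidase, *Ero1l*, had 0.029, and the thioredoxin-like proteins *Txndc11* and *Txndc5* had 0.057 and -0.012. *Pdia5*, at 0.744 to 1.196 CPM in homecage and 0.746 to 1.14 CPM in SOR, had -0.061. The median over the 9 genes was 0.18 with all samples and 0.048 without SOR replicate 1.

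The ERAD genes went different ways. *Herpud1* (ENSMUSG00000031770, chromosome 8 of GRCm38 from 94386438 to 94395377), a membrane protein that gathers the degradation complex, lay above homecage in every SOR mouse. *Herpud1* measured 51.7, 45.6, 44.0 and 43.5 CPM in homecage replicates 1 to 4 and 97.5, 56.4, 59.6 and 61.7 CPM in SOR replicates 1 to 4. SOR replicates 2 to 4 exceeded homecage replicate 1, the highest homecage mouse, and SOR replicate 1 was 1.65 times their mean. The mean was 68.8 ± 19.3 CPM in SOR beside 46.2 ± 3.77 CPM in homecage mice (SD, n = 4 each), a log2 fold change of 0.58 ± 0.15 (SE; edgeR, adjusted p = 0.213). Without SOR replicate 1 it was 0.36, with an adjusted p of 0.0835 by the same test, the smallest of the 34 genes in that comparison.

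*Edem2*, a mannosidase that marks glycoproteins for degradation, and *Os9*, a lectin that reads this mark, were the genes whose SOR values lay below homecage. *Edem2* measured 15.6, 17.3, 16.8 and 16.2 CPM in homecage replicates 1 to 4 and 15.2, 15.2, 14.4 and 15.3 CPM in SOR replicates 1 to 4. The margin was less than 1 CPM, and the log2 fold change was -0.13 ± 0.063 (SE; edgeR, adjusted p = 0.518), or -0.14 without SOR replicate 1. *Os9* measured 138, 131, 129 and 133 CPM in homecage replicates 1 to 4 and 124, 128, 128 and 129 CPM in SOR replicates 1 to 4, the highest level per length among the ERAD genes (50.5 CPM per kilobase of exon in homecage). SOR replicate 1 was the lowest sample here and homecage replicate 1 the highest, and the log2 fold change was -0.064 ± 0.036 (SE; edgeR, adjusted p = 0.596), a fold change of 0.957. The separation of *Os9* was lost under TMM and RLE scaling, with either other filter, without rounding and when homecage replicate 1 or 4 or SOR replicate 1, 2 or 3 was left out, and that of *Edem2* under TMM, RLE and library size scaling.

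*Syvn1*, the ubiquitin ligase of the pathway (HRD1), had a log2 fold change of 0.30 with all samples and 0.19 without SOR replicate 1, and *Sel1l*, its partner, 0.073 and 0.049. Of the derlins, which form the exit channel, *Derl2* had 0.21, *Derl1* -0.017 and *Derl3*, the least expressed, 0.37 at 0.839 to 1.35 CPM in homecage and 1.06 to 2.08 CPM in SOR. *Selenos*, a selenoprotein that binds the derlins, had 0.046 and *Edem1*, a second mannosidase-like protein, 0.0094. Without SOR replicate 1 the log2 fold changes were 0.12 for *Derl2*, -0.081 for *Derl1*, 0.13 for *Derl3*, -0.028 for *Selenos* and -0.023 for *Edem1*. Groups of all these genes overlapped. The standard errors of 0.065 for *Derl1*, 0.084 for *Selenos* and 0.085 for *Edem1* exceeded their fold changes, and so did those of *Atf6*, *Ern1*, *Ero1l*, *Txndc5*, *Pdia5* and *Canx*. The median over the 10 ERAD genes was 0.060 with all samples and 0.013 without SOR replicate 1, and 7 and 5 genes were above 0.

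**Figure D3:**
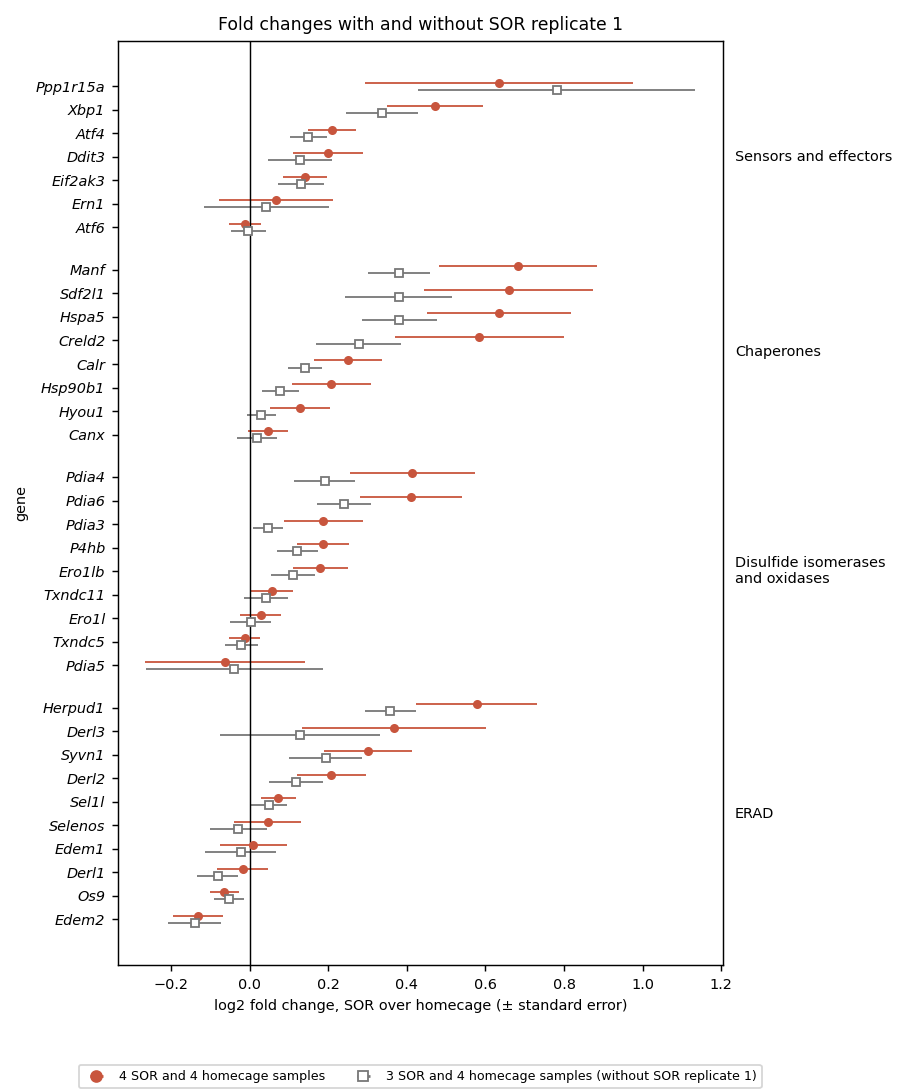
Log2 fold change of SOR over homecage (± standard error, edgeR) for the 34 genes by role, with all 8 samples (red circles) and without SOR replicate 1 (open grey squares). Most squares lie nearer 0 than their circles, as for *Hspa5* at 0.63 and 0.38, while *Eif2ak3*, *Edem2* and *Os9* barely move.

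For single genes, log2 CPM was also compared by an exact permutation test, two-sided, over the 70 ways to divide the 8 samples. Where groups of 4 do not overlap this exact test can give only p = 0.0286, its smallest value, so that it adds nothing to the count of 11 such genes. For *Sdf2l1*, *Creld2*, *Ddit3*, *P4hb* and *Syvn1* it gave p = 0.0571, and for *Ppp1r15a* p = 0.286 by the same exact test, none of them adjusted.

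The chaperones were compared with choroid plexus markers sample by sample. The median chaperone lay 0.87 above the homecage mean on the log2 scale in SOR replicate 1, and 0.23, 0.19 and 0.22 in SOR replicates 2 to 4. In homecage replicates 1 to 4 it lay at 0.12, -0.050, -0.048 and -0.069. The libraries with the most choroid plexus RNA, SOR replicate 1 and homecage replicate 1, were also the highest of their groups for the chaperones. Homecage replicate 4 held 911 CPM of these markers and had the lowest chaperone median of all samples. Homecage replicates 2 and 3, with 31.0 and 69.5 CPM, lay slightly above it. SOR replicate 4 held 45.0 CPM of choroid plexus markers beside 1127 CPM in homecage replicate 1. SOR replicate 4 and homecage replicate 1 measured 332 and 324 CPM for *Hspa5*, 41.9 and 34.3 CPM for *Manf* and 9.33 and 8.67 CPM for *Sdf2l1*. They measured 12.3 and 11.9 CPM for *Creld2* and 486 and 468 CPM for *Calr*. SOR replicate 4 was the lower for *Hsp90b1* (396 and 413 CPM), *Hyou1* (118 and 119 CPM) and *Canx* (435 and 466 CPM). Of the isomerases, *Pdia6* measured 116 and 114 CPM and *Pdia4* 81.1 and 84.9 CPM.

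All 8 choroid plexus markers had a log2 fold change above 0, with a median of 1.23 with all samples and 0.063 without SOR replicate 1. With the summed choroid plexus level as a covariate, an alternative chosen after the data were seen, the log2 fold change was 0.48 for *Hspa5*, 0.56 for *Manf*, 0.48 for *Herpud1* and 0.39 for *Xbp1*, with a median of 0.15 over the 34 genes and adjusted p of 0.251 or more. Fibroblast and meninges markers summed to 167 CPM in SOR replicate 1 and to 93.0 to 125 CPM in homecage. The 14 heat shock genes examined were cytosolic except for the mitochondrial *Hspd1* and *Hspe1*. They summed to 8317 CPM in SOR replicate 1, to 6564 to 6777 CPM in the other SOR mice and to 6034 to 6355 CPM in homecage. SOR replicate 1 was the highest sample for all 14 of them. In whole tissue, a change in the number of cells of a type and a change in RNA per cell cannot be told apart, and what part these cells had in the values of SOR replicate 1 was not tested.

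**Figure D4:**
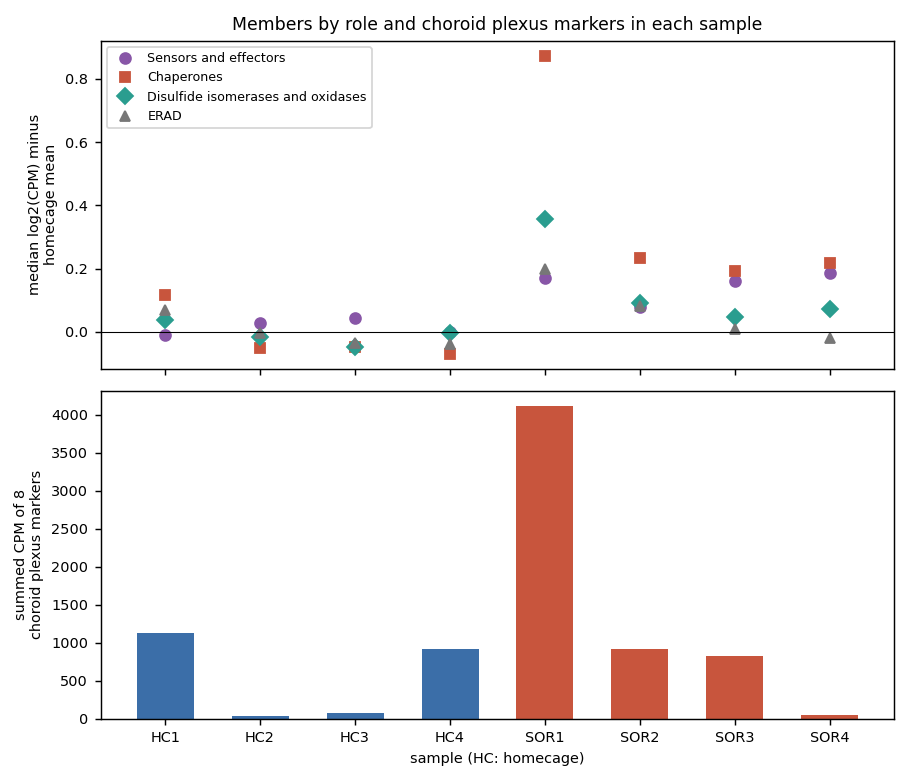
Upper panel, median over the genes of each role of log2 CPM minus the homecage mean in each sample; lower panel, summed CPM of the 8 choroid plexus markers in the same samples (blue homecage, red SOR). SOR replicate 1 is highest in both for the chaperones (0.87 and 4109 CPM), while SOR replicate 4 has 0.22 for the chaperones beside 45.0 CPM.

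Read beside the promoters shown above, the 10 genes with ERSE or ERSE-II all had a log2 fold change above 0, from 0.047 for *Canx* to 0.63 for *Hspa5*, with a median of 0.33. The 20 genes whose promoters held neither had a median of 0.11, from -0.13 for *Edem2* to 0.66 for *Sdf2l1*. Without SOR replicate 1 the medians were 0.17 and 0.048. Groups did not overlap, with SOR above homecage, for 5 of 10 and 3 of 20 genes, against 2.98% of all genes tested. With SOR below homecage they did not overlap for 0 of 10 and 2 of 20 genes (*Edem2* and *Os9*), against 3.96%. Over all promoters given, 13 other tested genes held ERSE, and their log2 fold changes had a median of -0.034, 3 of them above 0. They ran from -1.21 to 0.29, the highest being the ER cochaperone *Dnajc3*, whose groups overlapped and which had 0.11 without SOR replicate 1. ERSE-II was held by 8 other tested genes, with a median of 0.0011, 4 of them above 0. These ran from -0.087 to 0.24, the highest being the ER cochaperone *Dnajb11*, whose groups overlapped and which had 0.090 without SOR replicate 1. *Xbp1*, *Sdf2l1* and *Pdia4* reached log2 fold changes of 0.47, 0.66 and 0.41 with no match of these letters in the window. These are descriptions of letters in a window, and no difference between the classes was tested.

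**Figure D5:**
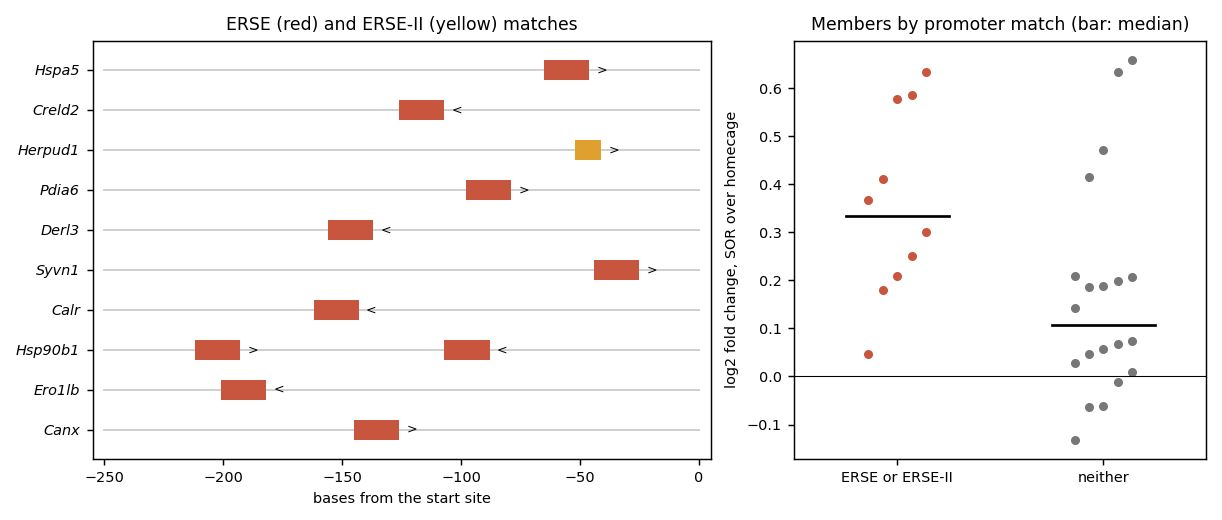
Left, matches of ERSE (red) and ERSE-II (yellow) in bases from the start site of 10 genes in order of log2 fold change, with arrowheads for orientation along the gene; right, log2 fold changes of genes with and without a match (points, genes; bars, medians). The medians are 0.33 and 0.11, and the ranges overlap.

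A further 97 genes of ER function were examined beside these. Of them, 60 had a log2 fold change above 0 and 37 below, with a median of 0.021 with all samples and -9.5e-05 without SOR replicate 1, and 1 passed an adjusted p under 0.05. That gene was *Atf3*, a transcription factor downstream of *Atf4* that is also an immediate early gene. *Atf3* measured 0.563, 0.744, 0.678 and 0.628 CPM in homecage replicates 1 to 4 and 1.398, 1.42, 1.47 and 1.61 CPM in SOR replicates 1 to 4. The groups were far apart, with a log2 fold change of 1.17 ± 0.15 (SE; edgeR, adjusted p = 0.00971), and it was 1.19 with an adjusted p of 0.0202 without SOR replicate 1 by the same test. The SOR values lay above all homecage values for 6 of the 97 and below them for 1, beside 2.98% and 3.96% of all genes tested.

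The others in the first group included *Ppp1r15b*, the constantly expressed relative of *Ppp1r15a*, with a log2 fold change of 0.18 ± 0.043 (SE; edgeR, adjusted p = 0.164). The ubiquitin-conjugating enzyme *Ube2g2* had 0.18 ± 0.043 (SE; edgeR, adjusted p = 0.143). The rest were the cochaperone *Dnajc1* with 0.12, the ERAD protein *Ubxn4* with 0.091 and the oligosaccharyltransferase subunit *Stt3b* with 0.089. *Faf2*, which recruits the extraction motor of ERAD, was the gene below homecage, with -0.13. By role, the median was 0.054 over 14 ER cochaperones, 0.040 over 14 genes of N-glycosylation, 0.036 over 12 of the *Eif2ak3* and *Atf4* arm, 0.025 over 16 of stress signalling and the calcium store, 0.0087 over 18 of translocation, -0.0023 over 8 other thioredoxin-fold proteins and -0.024 over 15 other ERAD genes. Without SOR replicate 1 these medians were, in the same order, 0.013, -0.019, 0.032, 0.013, -0.0072, -0.032 and -0.040. Those of the chaperones described above were 0.42 with all samples and 0.21 without SOR replicate 1.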

How the data were processed

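Bulk RNA-seq of the dorsal hippocampus from 4 homecage and 4 SOR mice was used; the spatial and single-nucleus data were not analysed here. The labels name a Ribo-Zero kit and yet polyA RNA as the molecule. The methods name alignment by STAR and gene counts by featureCounts in bcbio-nextgen. The values deposited by the authors are estimated counts per gene from tximport, without normalization, and 52.6% of them are not whole; the quantifier behind them is not given in the sources used here. Gene symbols, positions and exon lengths came from GENCODE M21 (GRCm38; the labels name mm10), with a record for 54495 of 54532 genes. *Ddit3* had 2 records, of which the longer was used.

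Counts were rounded, genes filtered with filterByExpr, libraries scaled by upper-quartile factors, and groups compared by edgeR 4.0.16 (quasi-likelihood F test, R 4.3.3), with Benjamini-Hochberg adjustment over 22018 genes. Standard errors were derived from the fold change and F. Levels between genes were compared as CPM per kilobase of exon. The methods also name RUVs with a number of factors that is not given, so fits with 1 to 3 factors were alternatives, beside scaling by TMM, RLE or library size, keeping genes with over 5 counts in 2 samples, no filter, the likelihood ratio test, DESeq2 1.42.0, limma-voom (limma 3.58.1), the replicate number as a block, counts not rounded, a fold change of 1.4 and leaving out each sample. A choroid plexus covariate was added after seeing the data. Genes and lists were chosen with earlier results of these data known. Every gene is named; each sample's value is given for sensors, genes whose groups do not overlap, genes named by the study and the highest level per length in each role. Genes outside the 34 are named at an adjusted p under 0.05 or where groups do not overlap. Scripts were tested on simulated data, with tables made in Python 3.11.15. Total counts were 51406011 to 81525977 per library.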

Additional observations from a re-analysis of the deposited data

Results flagged for a closer look

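The 68 groups of 4 samples examined come from genes of the same 8 mice, so that they are not independent draws. Dixon's 95% limit is passed by chance in about 1 of 20 groups taken singly, and how often all genes passed it was not examined. In 16 of the 68 groups, 1 sample stood so far from the other 3 that the gap exceeded this limit. SOR replicate 1 was the high sample in 10 of these: *Xbp1* (87.7 CPM beside 62.8 to 63.7 CPM), *Hspa5* (609 CPM beside 332 to 358 CPM), *Hyou1* (153 CPM beside 118 to 122 CPM), *Sdf2l1* (16.3 CPM beside 8.31 to 9.33 CPM), *Manf* (76.8 CPM beside 37.1 to 41.9 CPM), *Creld2* (23.4 CPM beside 11.9 to 12.3 CPM), *Pdia3* (183 CPM beside 129 to 133 CPM), *Pdia4* (137 CPM beside 81.1 to 85.0 CPM), *Pdia6* (178 CPM beside 116 to 123 CPM) and *Herpud1* (97.5 CPM beside 56.4 to 61.7 CPM). Without that mouse their log2 fold changes ran from 0.030 for *Hyou1* to 0.38 for *Hspa5*. SOR replicate 3 stood apart for *Ppp1r15a* alone (32.4 CPM beside 10.3 to 10.9 CPM), while its *Atf4* level lay within the range of the other SOR mice and its *Ddit3* level was the lowest of them. Homecage replicate 1 was high for *Xbp1* (60.7 CPM beside 46.0 to 47.5 CPM) and *Pdia4* (84.9 CPM beside 67.5 to 68.9 CPM). Low samples were homecage replicate 4 for *Ddit3* (12.9 CPM beside 14.9 to 15.3 CPM), homecage replicate 3 for *Ero1lb* (23.7 CPM beside 25.0 to 25.2 CPM) and homecage replicate 2 for *Derl1* (48.0 CPM beside 48.8 to 48.9 CPM). What set SOR replicate 1 and the *Ppp1r15a* value apart was not tested.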

How the results depend on the processing

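Of the 34 genes, 0 passed an adjusted p under 0.05 in either direction in the main comparison by edgeR, under TMM, RLE or library size scaling, either other filter, limma-voom, 1 RUVs factor, counts that were not rounded, the test against a fold change of 1.4, the choroid plexus covariate and all 8 comparisons that left out 1 sample. More passed, all of them higher in SOR, under the likelihood ratio test (2: *Xbp1*, adjusted p = 0.0308, and *Herpud1*, 0.0310), DESeq2 (3: *Xbp1*, 0.00925, *Pdia6*, 0.0440, and *Sdf2l1*, 0.0473) and 2 or 3 RUVs factors (3 each: *Hspa5*, 0.0171 and 0.0145, *Herpud1*, 0.0109 and 0.0145, and *Manf*, 0.0230 and 0.0309). With the replicate block, 2 passed (*Xbp1*, 0.0125, and *Hspa5*, 0.0465), but the numbers do not pair the mice: deviations correlated at -0.13 to 0.21 for equal and -0.38 to 0.29 for unequal numbers. Of all genes, 0.659% were called higher by the likelihood ratio test, 1.46% by DESeq2, 0.463% and 0.363% with 2 and 3 RUVs factors and 0.168% with the block, beside 0.273% in the main comparison. Why these models differ was not tested. The count of genes whose groups did not overlap was 11 in the main comparison (6.94% of all genes), 10 under TMM (6.88%) and RLE (6.83%), 8 under library size scaling (6.52%), 8 with no filter (4.95%), 10 with the other filter (6.32%) and without rounding (6.92%), and 10 to 16 with 1 sample left out, where fewer samples make overlap rarer. The median log2 fold change of the 34 genes stayed between 0.15 and 0.21 with all samples and ran from 0.11, without SOR replicate 1, to 0.22 with 1 sample left out. For the sensors and effectors that range was 0.13 to 0.22, lowest without SOR replicate 1 and then SOR replicate 3, for the chaperones 0.21 to 0.49 and for the disulfide isomerases and oxidases 0.048 to 0.21, both lowest without SOR replicate 1. Signs turned for 7 genes near 0: under TMM, RLE and DESeq2 for *Atf6* (0.0084, 0.0096 and 0.0094), *Txndc5* (0.0085, 0.0098 and 0.010) and *Derl1* (0.0040, 0.0053 and 0.0053), which centre all genes at 0.0019 or closer to 0, with the choroid plexus covariate for *Atf6* (0.0065) and *Selenos* (-0.025), and with 1 sample left out for *Atf6* (-0.037 to 0.0039), *Ern1* (-0.030 to 0.18, negative without homecage replicate 1), *Pdia5* (-0.19 to 0.042), *Txndc5* (-0.023 to 0.0088), *Edem1* (-0.028 to 0.067), *Derl1* (-0.081 to 0.036) and *Selenos* (-0.028 to 0.10). The other 27 genes kept their sign throughout.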
